A study of Mus musculus with 20 samples.

Results

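The DNA methylome of young control mice was described from 4 of the series' 20 libraries, those labelled wild type (WT) at 3 months of age. They were chosen by their labels, and no value entered the choice. The DNA came from brain homogenate enriched for microglia, the tissue-resident macrophages of the brain, of mice on the B6D2F1/J background, a cross of C57BL/6J and DBA/2J. The labels give these controls no transgene. Not compared here are 8 HEM libraries at 13 months and 4 at 3 months, from mice with an X-linked transgene in which the murine Thy-1 promoter drives human wild-type α-synuclein, and 4 WT libraries at 13 months. The series' design text counts 3 WT mice at 3 months, whereas 4 libraries carry that label. All 4 were used and are called replicates 1, 3, 4 and 5 after their titles. The labels do not state sex, and nothing beyond the titles says that each library is another animal, so the spread between libraries may be partly technical.

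In mammals a methyl group is carried mainly by cytosines that precede a guanine, the CpG. Most CpGs of the genome are methylated, while dense clusters of CpGs, the CpG islands that lie at most housekeeping and developmental gene starts, are kept free of methylation. Methylation of such an island goes with silencing of the gene, as at many genes used only in germ cells. At imprinted genes the control region is methylated on the copy from 1 parent alone, so that methylated and unmethylated copies are both present in a cell. Reduced representation bisulfite sequencing (RRBS), the assay used here, reads CpGs near the cut sites of a restriction enzyme and so favours CpG-rich sequence.

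Each library listed a percentage of methylation at the same 1234494 positions, of which 1234455 lie on chromosomes 1 to 19, X and Y and 39 on the mitochondrial genome. The files hold no read counts, so the depth of a percentage is not known and no counting interval is given. Errors are SDs over the 4 libraries throughout. Where both strands of a CpG were read they are listed as separate positions, and each position is counted as a CpG here. Mitochondrial CpGs averaged 0.297%, 0.0538%, 0.160% and 0.0544% in replicates 1, 3, 4 and 5.

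The range of promoter states is shown by 6 sequences, each from 250 bases before to 50 bases after an annotated start, written on the gene's strand (RefSeq, GRCm38.p6). They were chosen after their values were seen, to set side by side an unmethylated promoter, a pair at imprinted genes and 3 at germline genes. Capitals mark CpGs of which the C or the G was measured, and lower-case cg was not measured.
Ctcf: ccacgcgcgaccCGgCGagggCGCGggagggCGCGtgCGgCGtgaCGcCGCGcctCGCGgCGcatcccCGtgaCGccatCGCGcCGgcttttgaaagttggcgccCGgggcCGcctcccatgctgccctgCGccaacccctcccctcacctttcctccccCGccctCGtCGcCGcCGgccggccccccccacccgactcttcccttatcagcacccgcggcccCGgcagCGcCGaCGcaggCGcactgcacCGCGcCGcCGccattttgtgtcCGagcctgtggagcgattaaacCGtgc
Plagl1: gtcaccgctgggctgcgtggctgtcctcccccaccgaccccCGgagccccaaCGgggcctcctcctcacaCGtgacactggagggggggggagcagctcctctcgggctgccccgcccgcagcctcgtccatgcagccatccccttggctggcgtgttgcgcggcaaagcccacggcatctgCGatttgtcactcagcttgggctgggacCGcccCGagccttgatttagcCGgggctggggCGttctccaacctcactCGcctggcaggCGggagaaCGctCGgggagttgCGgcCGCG
Mcts2: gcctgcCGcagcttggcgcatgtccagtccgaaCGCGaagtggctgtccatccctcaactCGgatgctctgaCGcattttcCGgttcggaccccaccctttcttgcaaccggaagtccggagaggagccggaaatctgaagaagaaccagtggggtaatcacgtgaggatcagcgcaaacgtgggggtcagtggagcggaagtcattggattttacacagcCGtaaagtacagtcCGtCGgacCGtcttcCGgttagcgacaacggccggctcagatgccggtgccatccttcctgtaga
Dmrtb1: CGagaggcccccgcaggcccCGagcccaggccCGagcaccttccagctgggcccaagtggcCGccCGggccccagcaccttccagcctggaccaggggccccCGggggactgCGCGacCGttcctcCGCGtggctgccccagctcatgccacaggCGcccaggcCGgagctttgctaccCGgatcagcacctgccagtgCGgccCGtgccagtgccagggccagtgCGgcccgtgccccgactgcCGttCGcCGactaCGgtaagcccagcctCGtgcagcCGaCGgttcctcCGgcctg
Slc25a31: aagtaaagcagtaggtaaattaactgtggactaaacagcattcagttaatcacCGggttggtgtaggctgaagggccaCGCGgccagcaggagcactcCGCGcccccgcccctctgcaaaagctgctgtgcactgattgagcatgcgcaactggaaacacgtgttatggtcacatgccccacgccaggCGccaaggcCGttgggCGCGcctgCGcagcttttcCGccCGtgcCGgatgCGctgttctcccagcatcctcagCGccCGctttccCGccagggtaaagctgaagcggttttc
Ddx4: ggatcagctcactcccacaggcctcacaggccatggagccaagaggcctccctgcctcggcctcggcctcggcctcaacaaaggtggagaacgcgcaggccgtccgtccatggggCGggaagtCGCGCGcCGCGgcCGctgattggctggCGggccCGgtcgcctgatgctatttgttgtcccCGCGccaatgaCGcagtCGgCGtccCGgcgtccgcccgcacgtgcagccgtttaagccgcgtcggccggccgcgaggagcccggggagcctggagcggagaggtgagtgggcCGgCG
The Ctcf promoter (chr8:105636288-105636587, + strand), of the gene for the zinc finger protein that organises chromosome loops, had 38 of its 47 CpGs measured. Its mean was 0.169%, 0.135%, 0.253% and 0.208% in replicates 1, 3, 4 and 5, and no position of it averaged above 1.79%. Plagl1 (chr10:13090582-13090881, + strand) encodes an imprinted zinc finger protein, and Mcts2 (chr2:152686898-152687197, + strand) is an imprinted retrogene inside an intron of H13. The Plagl1 promoter was at 50.2%, 44.4%, 37.4% and 38.95% in replicates 1, 3, 4 and 5, and its positions averaged between 37.4% and 47.6%. The Mcts2 promoter was at 48.4%, 51.4%, 49.6% and 40.7% in the same order, with positions between 42.8% and 52.1%. Every measured position of both promoters was therefore near the middle of the scale, with no mixture of empty and full CpGs. Dmrtb1 (chr4:107683540-107683839, - strand) is a transcription factor of spermatogenesis, and its promoter was at 89.8%, 85.1%, 88.3% and 86.6%. Slc25a31 (chr3:40708621-40708920, + strand), a mitochondrial ADP/ATP carrier of the testis, was at 82.6%, 83.2%, 86.7% and 88.3%. Ddx4 (chr13:112652261-112652560, - strand), the vasa RNA helicase of germ cells, was at 68.3%, 62.5%, 59.8% and 65.6%, and its positions ranged from 46.2% to 81.5%. The promoters of these 3 germline genes were methylated in every library, that of Ddx4 least.

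Across all CpGs the methylome was split between empty and nearly full positions, with few in between. The mean level was 31.7%, 31.2%, 32.2% and 31.3% in replicates 1, 3, 4 and 5, or 31.6% ± 0.445 (SD, n = 4). The median was 1.64% ± 0.117, far below the mean, and 43.9% ± 1.85 of CpGs were at exactly 0 in a library. CpGs under 20% made up 59.6% ± 0.347, those from 20% to 80% made up 17.4% ± 0.521, and those over 80% made up 22.96% ± 0.774. Full methylation was rare, with 2.33% ± 0.671 of CpGs at exactly 100. Counting a CpG only when all 4 libraries put it in the same class, 349575 (28.3%) were at 0, 715047 (57.9%) under 20%, 206167 (16.7%) over 80%, and 8750 (0.709%) between 40% and 60%. CpGs at 0 or under 20% lay mostly near gene ends, and those at 40% to 60% or over 80% mostly elsewhere. Of the CpGs at 0 in each library 80.7% were within 1000 bp of an annotated gene end, where 48.7% of all CpGs lie. Of those at 40% to 60% in each library 15.5% were there, 55.2% lay deeper inside genes and 29.3% between genes. CpGs over 80% in each library were placed much like these, at 10.7%, 57.5% and 31.7% in the same order. Over all CpGs the shares were 48.7%, 36.4% and 14.97%.

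**Figure D1:**
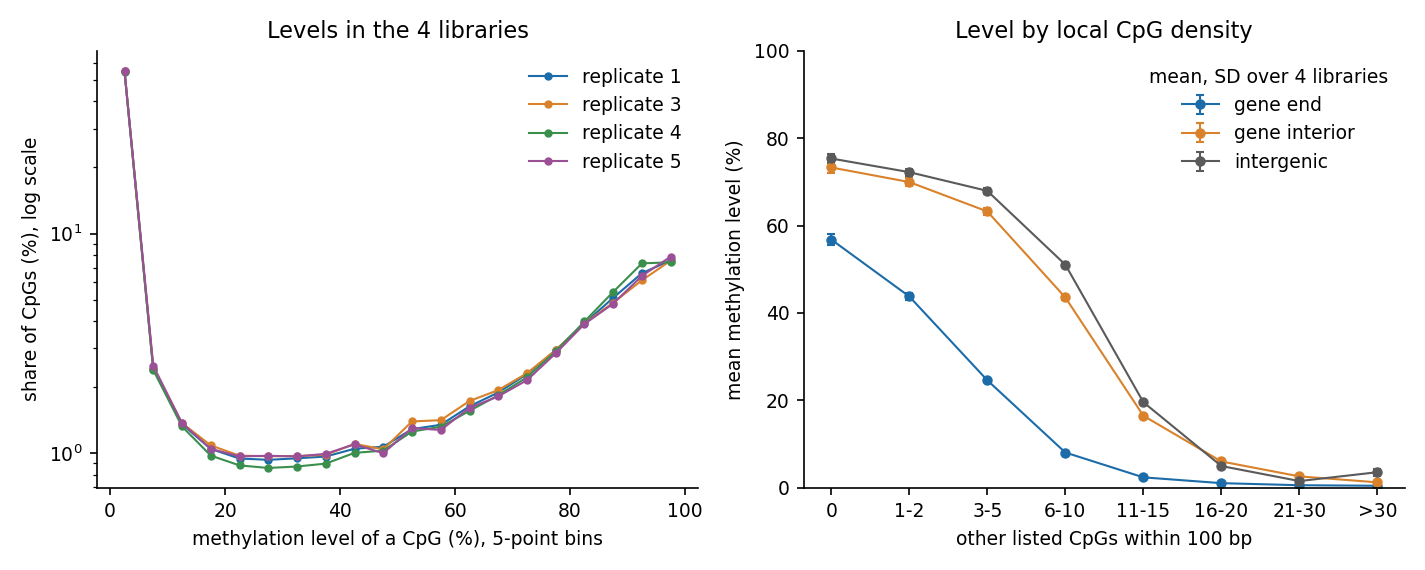
Left, share of CpGs (%, log scale) in each 5-point bin of methylation level, 1 line per library; the lowest bin holds most CpGs and the share climbs again toward the full end. Right, mean level (%) by the number of other listed CpGs within 100 bp, for CpGs at gene ends, in gene interiors and between genes (points are means and bars SDs over 4 libraries); gene ends lie lowest in every density bin.

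Position relative to genes ordered the levels. CpGs were placed at gene ends (within 1000 bp of the first or last annotated base of any gene, 600831 CpGs), in gene interiors (inside a gene and farther from any end, 448796) or between genes (184828). Gene ends averaged 8.202%, 8.03%, 8.37% and 8.05% in replicates 1, 3, 4 and 5. Gene interiors averaged 49.3%, 48.6%, 50.1% and 48.7%, and intergenic CpGs 65.4%, 64.6%, 66.2% and 64.6%. The 3 places did not overlap in any library. The difference of gene ends minus interiors was -40.998 ± 0.540 points, of gene ends minus intergenic CpGs -57.1 ± 0.597 points, and of interiors minus intergenic CpGs -16.1 ± 0.0862 points (SD, n = 4), each with the same sign in 4 of 4 libraries. A two-sided exact permutation test over sign flips of the 4 differences gave p = 0.125 for each of the 3 comparisons, 0.125 after Benjamini-Hochberg adjustment, which is the smallest p that 4 libraries allow, so that this design cannot pass 0.05. The median CpG followed the same order, at 0% at gene ends, 59.6% ± 2.19 in interiors and 79.3% ± 0.942 between genes.

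The level climbed with distance from a gene end for several kilobases. Inside genes it was 5.45% ± 0.103 within 100 bp of an end, 16.5% ± 0.343 at 900 to 1000 bp, 46.2% ± 0.640 at 2000 to 5000 bp and 62.4% ± 0.926 at 20000 to 50000 bp. At 50000 to 100000 bp inside genes it was 61.4% ± 0.882. Outside genes it was 4.19% ± 0.0937 within 100 bp, 36.2% ± 0.581 at 900 to 1000 bp and 76.1% ± 0.660 at 50000 to 100000 bp. The first kilobase therefore held a larger climb outside genes than inside them, and the level outside genes was still climbing where that inside genes had levelled off.

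The start and the 3' end of a gene were unlike. Around 32817 annotated starts the level was 2.38% ± 0.0703 in the 250 bp upstream and 2.21% ± 0.0503 in the 250 bp downstream. The trough was wider on the side of the gene body, at 9.45% ± 0.296 at 750 to 1000 bp downstream, against 19.02% ± 0.426 as far upstream. Farther out the order turned, with 57.1% ± 0.825 at 5000 to 10000 bp downstream and 49.7% ± 0.717 as far upstream. Around the 16491 3' ends over 5 kb from a start there was no trough at the end itself. The last 250 bp of the gene were at 60.4% ± 1.09 and the first 250 bp beyond it at 61.1% ± 1.13. Beyond the end the level was 51.6% ± 0.771 at 250 to 500 bp and 44.9% ± 0.770 at 1000 to 1500 bp, whereas inside the gene it stayed between 57.5% and 61.4% back to 3000 bp. When 3' ends close to a start were included (26988 ends in all), the last 250 bp were at 40.5% ± 0.743.

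**Figure D2:**
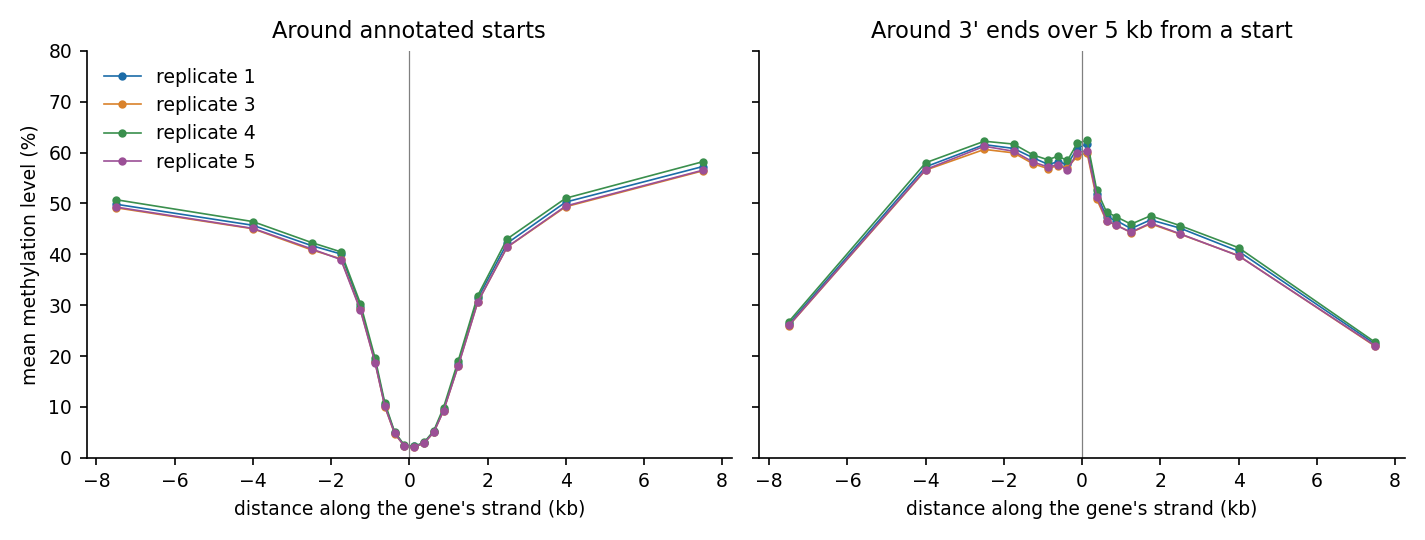
Mean methylation level (%) by distance (kb, along the gene's strand, negative is upstream) from annotated starts (left) and from 3' ends over 5 kb from a start (right), 1 line per library. The 4 lines run together; the level beside starts is 2.21%, while beside such 3' ends it is 61.1%, and beyond 5 kb on the right starts come into range.

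Levels were lower where CpGs were denser. CpGs with no other listed CpG within 100 bp averaged 72.2% ± 1.13, those with 3 to 5 neighbours 53.6% ± 0.706, those with 6 to 10 neighbours 25.6% ± 0.370, those with 11 to 15 neighbours 6.56% ± 0.123, and those with 21 to 30 neighbours 1.01% ± 0.0326. The number of listed neighbours depends on which CpGs were read as well as on the sequence. Position still separated CpGs of like density: at 6 to 10 neighbours gene ends were at 8.08% ± 0.167, gene interiors at 43.6% ± 0.586 and intergenic CpGs at 51.1% ± 0.646. With 21 to 30 neighbours gene ends were at 0.596% ± 0.0237, interiors at 2.62% ± 0.0587 and intergenic CpGs at 1.55% ± 0.252. Dense CpGs were thus nearly empty at all 3 places, while a CpG with no neighbour near a gene end was at 56.8% ± 1.16, well above the mean of gene ends.

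Promoter sequence ordered levels too. Promoters were sorted by the ratio of observed CpGs to the number expected from their C and G content over the 300 bases of the RefSeq window, and those with at least 3 measured CpGs were used. Promoters with a ratio of 0 to 0.2 averaged 50.4% ± 1.43 (51 promoters), those of 0.2 to 0.4 32.1% ± 0.876 (599), those of 0.4 to 0.6 11.1% ± 0.311 (1399), those of 0.6 to 0.8 2.22% ± 0.0622 (3230) and those of 0.8 to 1 0.548% ± 0.0120 (3967). Above 1 the level was 0.588% ± 0.0157 (1682 promoters), no lower than in the class before. CpG-poor promoters were thinly sampled, with 0.542% of those in the lowest class measured, against 80.96% of those at 0.8 to 1. The letters CCGG, which read the same on both strands and are the cut site of MspI, the enzyme usual in RRBS, were in 52.8% of all 32851 promoter windows, 1 per annotated gene start. They were in 100% of the 9644 windows with at least 5 listed CpGs and in 24.01% of the windows with none. The enzyme is not given in the sources used here.

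Autosomes differed by a few points, more than libraries did. Chromosome 19 was lowest, at 27.4%, 26.9%, 27.9% and 27.02% in replicates 1, 3, 4 and 5, and chromosome 10 was highest, at 33.9%, 33.5%, 34.5% and 33.5%. The range over autosomes was 6.55 points. Over libraries the range was from 26.9% to 27.9% on chromosome 19 and from 33.5% to 34.5% on chromosome 10. The mean SD between libraries was 0.449 points. Chromosome 19 had 52.8% of its CpGs at gene ends and chromosome 10 had 48.8%, against 48.7% of all CpGs. Over the 19 autosomes the mean level was lower where that share was larger (Pearson's r = -0.690, a description over chromosomes that share the same libraries). It was also higher where interiors (r = 0.622) and intergenic CpGs (r = 0.593) had higher means. Place by place, gene ends ran from 6.72% on chromosome 1 to 10.2% on chromosome 7, interiors from 46.2% on chromosome 2 to 53.6% on chromosome 8, and intergenic CpGs from 57.1% on chromosome 19 to 71.1% on chromosome 3. The order of chromosomes depended on the weighting: with 1 kb tiles of at least 3 CpGs averaged in place of CpGs, the lowest autosome was 11 at 51.1% and the highest 18 at 57.7%.

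The X chromosome combined high ends with low interiors. Its gene ends averaged 11.9% ± 0.173 and its intergenic CpGs 74.9% ± 0.455, both above every autosome. Its interiors averaged 36.5% ± 0.279, below every autosome. The median number of listed neighbours within 100 bp was 10 at X gene ends, against 13 to 15 on autosomes. In interiors it was 5 on X, against 3 to 5 on autosomes. Whether this density accounts for the X levels was not tested. The share of X interior CpGs between 20% and 80% was 14.8%, against 23.1% on chromosome 13 to 28.9% on chromosome 8. In every library 945 CpGs were listed on the Y chromosome, where the mean was 80.8% ± 1.08 and 81.6% of CpGs were intergenic. The 111 CpGs at gene ends of the Y varied between 45.1% and 59.2% over libraries.

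**Figure D3:**
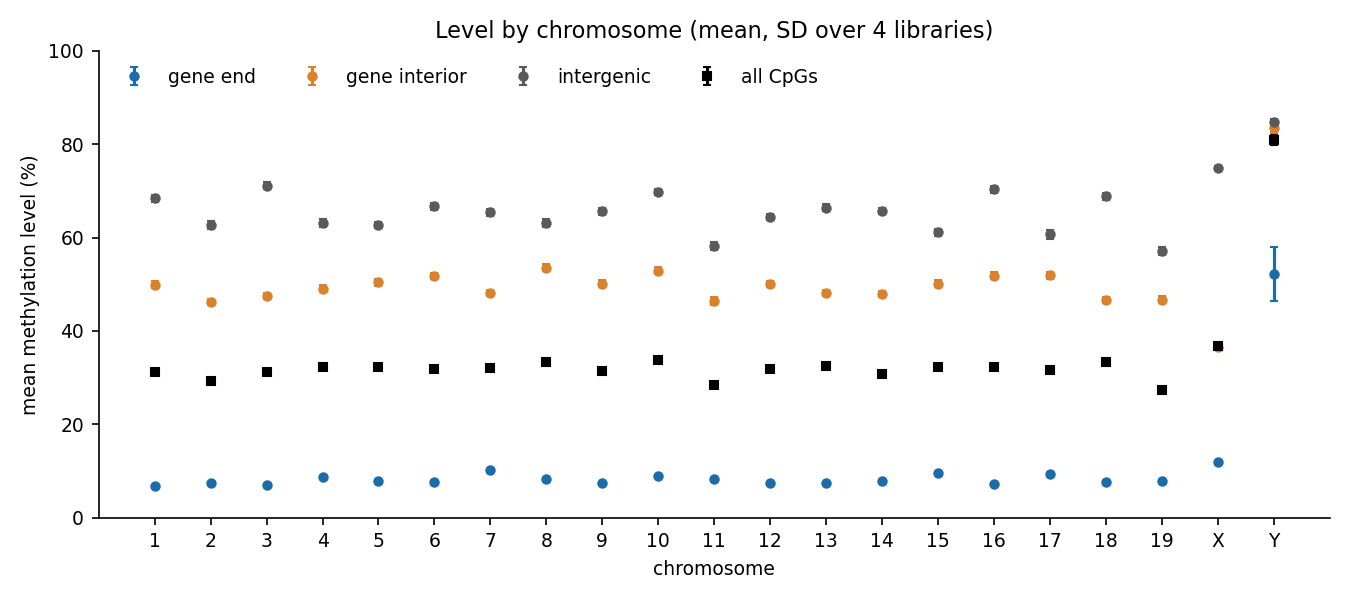
Mean methylation level (%) of each chromosome for CpGs at gene ends, in gene interiors, between genes, and for all CpGs together (points are means and bars SDs over 4 libraries). The order of the 3 places is the same on every autosome, while on X the marker for all CpGs lies over that for interiors, at 36.9% and 36.5%.

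Genes were classed by the mean of a region, that is the annotated gene widened by 1000 bp on each side, if it held 5 or more CpGs, as 23779 of 49943 genes did. Regions at 5% or less in each library, called unmethylated, numbered 5626 (23.7%). Regions from 40% to 60% in each library, called intermediate, numbered 1954 (8.22%), and 27 (0.114%) were at 95% or more in each library, called fully methylated. The limits divide a continuous scale, since the region of Pacrgl just met the lower limit with a highest library of 4.99%, and that of Ncoa4 just missed it at 5.005%. Unmethylated regions had a median gene length of 8464.5 bp and intermediate ones of 30681.5 bp, against 17544 bp over all regions.

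The 10 named unmethylated regions with the most CpGs were chosen by that number alone, and no share of any kind of gene is read from them. Among them were Elf2, an ETS factor (370 CpGs, 3.797% ± 0.132), Prdm12, a factor of pain-sensing neurons (316 CpGs, 3.59% ± 0.257), Hmx1, a homeobox factor (281 CpGs, 1.61% ± 0.300), Yy1, a zinc finger regulator (273 CpGs, 2.04% ± 0.125), and Nr2f2, a nuclear receptor (263 CpGs, 1.56% ± 0.188). The others of the 10 were the transcription factors Klf13 and Foxo6, the translation regulators Cpeb2 and Eif4e3, and Tsc22d2, and between 93.8% and 100% of the CpGs of each region were under 20%. In Prdm12 and Nr2f2 most of the measured CpGs lay away from the gene's ends, with 13.3% and 14.4% of them within 1000 bp of a gene end. Tsc22d2 was the lowest of the 10, at 0.157%, 0.185%, 0.150% and 0.146% in replicates 1, 3, 4 and 5.

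Fully methylated regions were small. They included 15 pseudogenes and 6 protein-coding genes, with a median of 7 CpGs. Protein-coding genes were 22.2% of them, against 67.7% of all regions, and 1147 of all 23779 regions were pseudogenes. How reads from near-identical copies were placed is not given in the sources used here. Ctnnd1, which encodes p120-catenin of cell junctions, had the most CpGs of the named ones, 15, at 95.02%, 95.02%, 95.1% and 95.6% in replicates 1, 3, 4 and 5. It lay just inside the limit. The other named regions had 5 to 8 CpGs: the zinc finger genes Zfp111 (97.2% ± 0.631) and Zfp952 (97.6% ± 1.07), the claudin gene Cldn17 (96.8% ± 1.31), the pseudogene Glns-ps1 (97.2% ± 1.12) and the microRNA gene Mir6982 (97.5% ± 0.607). With 1 library left out the count of fully methylated regions was 36 to 43. It could not fall there, since each library used must pass the limit.

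Intermediate regions were mostly mixtures of empty and full CpGs. Of the 1954, 1671 (85.5%) had at least 10% of their CpGs under 20% and at least 10% over 80%, and 85 (4.35%) had at least 50% of their CpGs between 40% and 60%. The ones with the most CpGs were long genes, of 192454 to 1297160 bp. Camta1, a calmodulin-binding transcription activator, had 989 CpGs at 46.9%, 45.9%, 47.9% and 46.2% in replicates 1, 3, 4 and 5, but 37.5% of its CpGs were under 20%, 30.8% over 80% and 10.1% between 40% and 60%. Next were Prdm16 (760 CpGs, 46.8% ± 0.806), a transcription factor, Zfhx3 (715, 49.8% ± 0.798), a zinc finger homeobox factor, Tenm3 (531, 52.01% ± 0.459), a teneurin of neuronal wiring, Cux2 (521, 53.2% ± 0.968), a homeobox factor of upper cortical layers, and Cdh23 (512, 51.04% ± 1.25), a cadherin of hair cells. Nav2, Zfp536, Cmip and Trio completed the 10, and none of the 10 had more than 11.3% of its CpGs between 40% and 60%.

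Windows at starts were more often empty than whole regions. Of 14334 windows reaching 1000 bp to each side of a start with at least 5 CpGs, 11365 (79.3%) were unmethylated, 129 (0.900%) intermediate and 5 fully methylated, and 441 were at 80% or more in each library. Within the 300 bases of the promoter itself, with starts of a gene that hold the same CpGs counted once, 93.5% of 9493 windows with at least 5 CpGs were unmethylated, 20 were intermediate, 0 were fully methylated and 69 were at 80% or more in each library. Chromosome 18 starts were not used here. The empty start windows with the most CpGs were those of Ankrd11, a chromatin regulator (239 CpGs, 0.191% ± 0.0516), Zswim6 (236, 0.102% ± 0.0584), Sox12, an HMG-box factor (223, 0.248% ± 0.0938), Syde2, Yy1, Kmt2c, Afdn, Ctcf, Atp2b1 and Zfp664, none above 0.630% in any library. Among 300-base promoters, Mark1, a microtubule-regulating kinase, had the most CpGs (71, 0.406% ± 0.116), ahead of Cacna1d, Ran, Fbxl14, Sos2, Aldh1a2, Ankrd13a, Usp7, Spin1 and Ankrd52, of which Aldh1a2, a retinoic acid synthesis enzyme, was highest at 0.728% ± 0.306.

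Of the 129 intermediate start windows, 36 (27.9%) had at least 10% of their CpGs under 20% and at least 10% over 80%, and 40 (31.01%) had at least 50% of their CpGs between 40% and 60%. Dazl, an RNA-binding protein of germ cells, had the most CpGs, 82, at 42.5%, 42.5%, 43.2% and 42.4% in replicates 1, 3, 4 and 5. Its window was a mixture, with 53.7% of CpGs under 20%, 40.2% over 80% and 1.22% between 40% and 60%, whereas in that of the heart gene Lrrc10 55.6% were between 40% and 60% and 0% were under 20%. Meioc, a meiosis gene, followed with 53 CpGs at 52.1% ± 2.29, then Plekhg4 (48 CpGs, 48.9% ± 0.596), Znrf4 (43, 56.1% ± 2.12) and Fam174c (37, 51.9% ± 1.02). Cuedc1, Lrrc10, the gut adhesion molecule gene Madcam1, the FGF co-receptor gene Klb and the muscle gene Lmod1 were between 50.02% and 58.7%. Among the 300-base promoters the intermediate ones included Mcts2, the glycine transporter gene Slc6a9 (10 CpGs, 46.9% ± 1.44), the glycerol-3-phosphate acyltransferase gene Gpam (6, 53.7% ± 3.19), the vomeronasal receptor gene Vmn2r29 (17, 44.3% ± 1.27), and Krtcap3, Slc6a14, Klk5, Arhgef10l and Arpp21.

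The most methylated of the named 300-base promoters was that of Tuba3b, a testis α-tubulin, at 97.7%, 94.5%, 97.8% and 94.4% in replicates 1, 3, 4 and 5 over 8 CpGs, and its near-identical partner Tuba3a was at 93.03% ± 0.874 over 5. Others were Taf1c (95.4% ± 1.08), a polymerase I factor subunit, Lrrc75aos1 (95.3% ± 2.32), the testis ribosomal protein gene Rpl10l (95.1% ± 1.24), Jade1 (93.6% ± 1.32), Sec1 (93.5% ± 2.87) and Yy2, a retrocopy of Yy1 (93.2% ± 2.705). Btbd18 and Ctnnd1 had the same value over 11 CpGs, 94.6% ± 0.713, since their promoter windows hold the same CpGs. The start windows called fully methylated included Asmt, the last enzyme of melatonin synthesis (8 CpGs, 97.1% ± 1.25), and Cldn17 (5, 96.8% ± 1.31).

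Gene interiors were mostly methylated whatever the state of the start. Of 6319 genes with at least 5 CpGs at a start and at least 5 interior CpGs over 2000 bp from any start, 5262 (83.3%) had a start at 5% or less, and the median of their interiors was 79.2%. For the 139 genes with a start over 80% the median interior was 75.02%, and for the 390 genes with a start over 20% and up to 80% it was 73.9%. Interiors at 20% or less were seen in 253 (4.81%) of the genes with an empty start. Among enzymes of methylation, Dnmt1, the maintenance methyltransferase, averaged 2.57% over the 38 CpGs at its starts and 86.6% inside. All but 1 of those start CpGs lay in its only start window of at least 5 CpGs, which averaged 0.147%. Dnmt3b, a de novo methyltransferase, averaged 0.171% and 91.4%, and Uhrf1, which brings Dnmt1 to replicated DNA, 0.112% and 93.1%. Slc17a7, the vesicular glutamate transporter of neurons, had no such step, at 8.11% at its start and 4.59% inside.

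Gene lists of known kinds lay at different levels in their start windows. Each is set against all 14334 windows, of which the median was 0.372% and 79.3% were unmethylated. The lists and their members were chosen with earlier results of these data known, so the contrasts between lists and all windows are descriptions. Housekeeping genes were at a median of 0.131%, with 21 of 23 windows (91.3%) unmethylated. Gapdh, the glycolytic enzyme, was at 0.0450%, 0.0780%, 0.104% and 0.0775% in replicates 1, 3, 4 and 5, and Tfrc, the transferrin receptor, at 0.0470%, 0%, 0.0985% and 0.0939%. The exceptions were Chmp2a, a subunit of the ESCRT machinery, at 35.8%, 34.8%, 37.8% and 36.4%, and the glycolytic enzyme Gpi1 at 9.31% ± 2.22. Among 30 housekeeping regions that of Gusb, lysosomal β-glucuronidase, was highest, at 64.3% ± 1.33. The methylation machinery was at a median of 0.186%, with 19 of 20 windows (95%) unmethylated, and by region Dnmt1 was highest, at 57.6% ± 0.945. With lists this short, neither share is called different from that of all windows.

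Developmental transcription factors and Hox genes pattern the embryo and are silent or restricted in most adult cells. Their regions had low means, while their starts had medians above that of all windows. The 45 developmental start windows had a median of 1.58% and the 21 Hox windows 2.03%. Of the developmental windows 37 (82.2%) and of the Hox windows 14 (66.7%) were unmethylated, against 79.3% of all windows, and their highest members were Pax8 (15.9% ± 3.42) and Hoxd4 (23.998% ± 3.35). Whole regions had a median of 2.99% in 50 developmental genes and 2.799% in 39 Hox genes, against 22.6% over all regions. This held for region means only. With the median CpG of a region in place of its mean, developmental regions were at 0.804% and Hox regions at 0.987%, against 0.778% over all regions. The region of the proneural factor gene Neurog2 (97 CpGs, 0.776% ± 0.0542) had all its CpGs under 20%. The highest regions were those of Pax8 (30.5% ± 2.65) and Pax5 (24.8% ± 0.628).

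Germline genes stood at the other end of the scale. Their 28 start windows had a median of 86.8%, 20 were over 80% and 1 was unmethylated, whereas 3.77% of all start windows were over 80%. The list was not chosen blind to these data, and it holds Tuba3a, Tuba3b and Rpl10l, named above among the most methylated promoters. The contrast is therefore no independent support. Stra8, the retinoic acid response gene of meiotic entry, was at 94.998%, 93.3%, 95.6% and 97.1% in replicates 1, 3, 4 and 5 over 8 CpGs. Dpep3, a testis dipeptidase, was at 95.9% ± 1.69 over 5, and Brdt, a testis bromodomain protein, at 92.7% ± 1.79 over 7. The lowest were Tdrd5, a tudor protein of the piRNA pathway, at 2.15%, 2.21%, 2.14% and 1.72%, and Smc1b, the meiotic cohesin subunit, at 35.6%, 43.3%, 36.3% and 44.9%. With Dazl at 42.6% ± 0.385 and Ddx4 at 65.8% ± 2.68, the list spanned most of the scale.

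**Figure D4:**
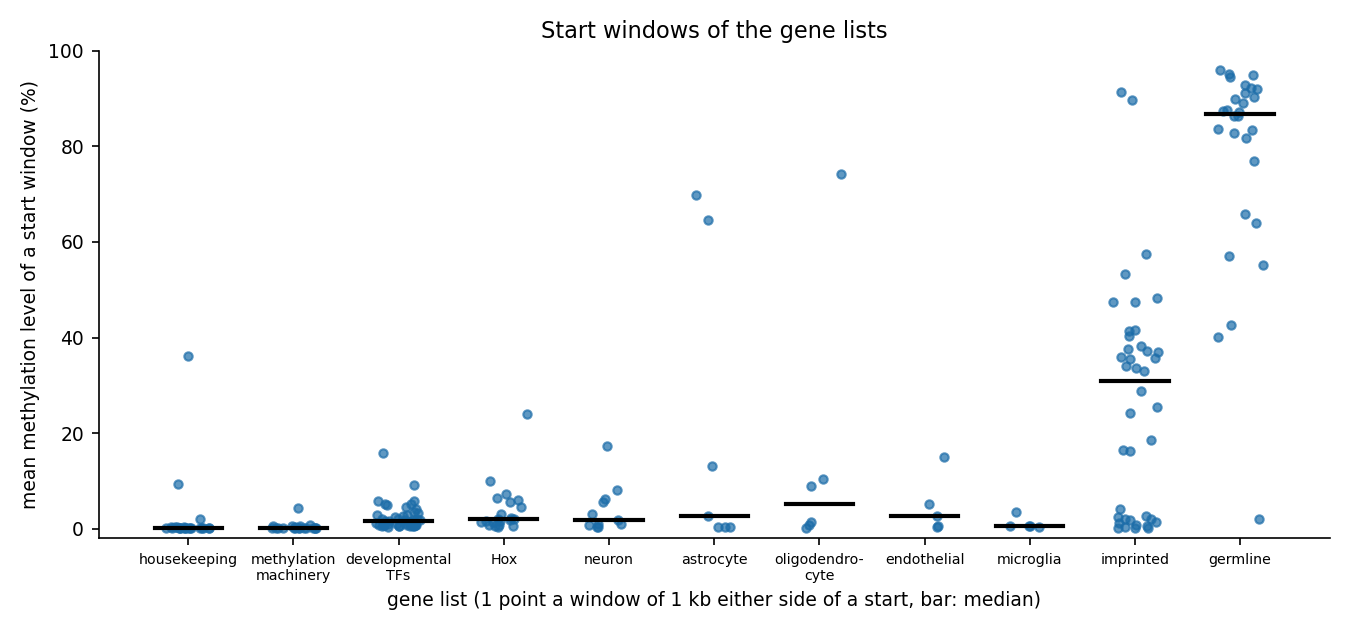
Mean methylation level (%) over 4 libraries of each start window (1 kb to each side of a start, at least 5 CpGs) in the gene lists, 1 point per window. Most housekeeping, Hox and developmental windows lie near 0, 18 of 40 imprinted windows lie between 30% and 60%, and 20 of 28 germline windows lie over 80%.

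Imprinted genes were often in the middle of the scale. Of the 40 start windows of 31 imprinted genes, 18 were between 30% and 60%, 14 were unmethylated and 2 were over 80%, and the median was 30.9%. The share between 30% and 60% was 45%, against 3.44% of all start windows, and the share unmethylated 35%, against 79.3%. At Gnas, a locus with several alternative starts, 1 start was at 0.0915% ± 0.0424 over 139 CpGs while others were at 33.5% ± 5.06, 34.1% ± 4.84 and 37.6% ± 6.99, and windows whose starts lie close together share CpGs. Blcap was at 0.147% ± 0.108, and Nnat, a neuronal proteolipid gene in an intron of Blcap, was at 34.1%, 43.5%, 34.5% and 31.6% in replicates 1, 3, 4 and 5. Zdbf2 had a start at 89.6% ± 5.21 and another at 1.26% ± 0.189, and Slc38a4, an amino acid transporter, had starts at 91.4% ± 3.23 and 35.5% ± 7.77. Different starts of 1 imprinted gene were therefore in different states in the same libraries. Whole regions were intermediate in all 4 libraries at Kcnq1 (45.3% ± 1.92), Meg3 (50.6% ± 2.67), Mest (53.6% ± 2.17), H19 (53.9% ± 3.81), Snrpn (54.96% ± 2.45) and Usp29 (58.8% ± 0.627). Over all regions the share called intermediate was 8.22%. In these imprinted regions the share of CpGs between 40% and 60% ran from 15.8% at Kcnq1 to 50% at Mest, so a middle mean was partly a mixture. The extremes among the 44 regions were Dio3 (1.93% ± 0.565) and Phlda2 (3.29% ± 0.284) at the low end and Peg10 (75.3% ± 3.62) and Rtl1 (89.1% ± 0.901) at the high end.

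At some imprinted loci neighbouring CpGs were close to each other at a middle level. The genome was divided into 1 kb tiles, and of 26568 tiles with at least 10 CpGs 1906 (7.17%) had a mean from 30% to 70%. The SD over the CpGs within such a tile had a median of 16.1 points and ranged from 1.34 to 47.4 points. Of these tiles 31 (1.63%) lay within 5 kb of a listed imprinted gene, and among the 10 most even tiles 7 did. Of the 31 tiles with an SD under 5 points, 12 did. Not all tiles near an imprinted gene were even: their SD ran from 1.34 points at Mcts2 to 42.7 points at another tile of H13. That of Igf2, at 21.9 points, was also above the median of such tiles. The tile limits were chosen after values were seen, and this is a description without a test.

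The most even tile lay at the promoter of Mcts2 (chr2:152686001-152687000, mm10), whose sequence is printed above. Its 14 CpGs averaged between 47.03% and 52.1% each, with an SD of 1.34 points, while the libraries were at 52.5%, 53.1%, 53.8% and 39.97% in replicates 1, 3, 4 and 5. Next came the tile shared by Peg10, a retrotransposon-derived gene needed in the placenta, and its neighbour Sgce (chr6:4747001-4748000, 12 CpGs, SD over CpGs 1.63 points), at 37.7%, 47.9%, 50.3% and 25.6%. The SD of the tile mean between libraries was 6.59 points at Mcts2 and 11.2 points at Peg10. Both were larger than the SD over CpGs, which is taken after each CpG is averaged over the 4 libraries. Whether the CpGs of a tile moved together from library to library was not tested. Inpp5f (SD over CpGs 1.68 points, mean 35.7%), Gnas (1.83 points, 39.7%), Nnat with Blcap (1.903 points, 35.9%), Plagl1 (2.29 points, 42.5%) and Grb10 (2.47 points, 34.1%) followed, and all 7 means were under 50%. The other 3 of the 10 most even tiles lay at Rassf3 (2.65 points, 39.3%), Cdk2ap1 (2.71 points, 64.97%) and Coro1c (2.84 points, 30.8%). Impact, known as an imprinted gene of the mouse but not in the list, had a tile of 24 CpGs at 36.1% with an SD over CpGs of 3.73 points. When a tile had to be at 40% to 60% in each of the 4 libraries, 386 tiles were left and 0 of the 10 most even were near a listed imprinted gene, because each of the 7 imprinted tiles had at least 1 library outside that range.

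**Figure D5:**
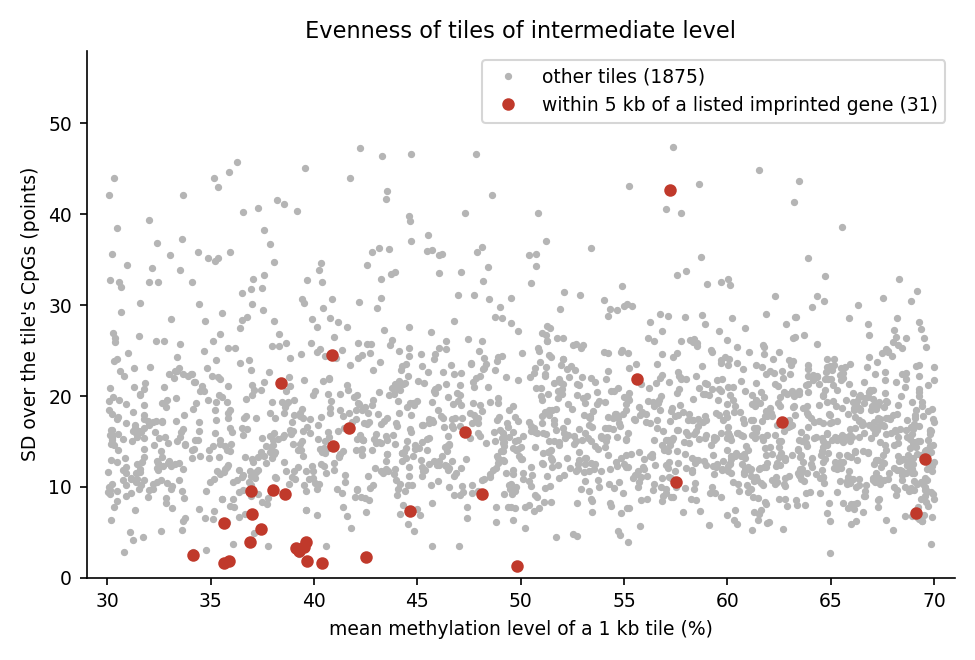
SD over the CpGs of a 1 kb tile (points) against the tile's mean methylation level (%), for the 1906 tiles of at least 10 CpGs with a mean from 30% to 70%. Tiles within 5 kb of a listed imprinted gene (31) are marked, and 7 of the 10 lowest points are among them, while the median over all tiles is 16.1 points.

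Markers of brain cell types were measured unevenly. Of 24 microglia markers 16 had a region with at least 5 CpGs and 3 had a start window, so the label of microglia enrichment could not be checked at most of their starts, and a methylation level does not count cells. The start windows of Mertk, a phagocytic receptor kinase (0.325% ± 0.102), of Sall1, a transcription factor of microglia identity (0.464% to 0.652% at 3 starts), and of Irf8, a factor of the myeloid lineage (3.56% ± 0.390), were unmethylated. Neuron windows had a median of 1.82% (11 windows), astrocyte windows of 2.55% (7) and oligodendrocyte lineage windows of 5.203% (6). Of these 7 (63.6%), 4 (57.1%) and 3 (50%) were unmethylated, against 79.3% of all 14334 start windows and 5 of 5 microglia windows. Among them were the astrocyte glutamate transporter gene Slc1a3 (0.259% ± 0.0578) and the myelin enzyme gene Cnp (0.0667% ± 0.0692). Endothelial and pericyte windows were unmethylated in 3 of 5 (60%). The only macrophage and leukocyte window, that of Pf4, was at 31.5% ± 7.83. The highest were the astrocyte genes Gfap, an intermediate filament (64.7% ± 4.32), and Aldoc, a glycolytic enzyme (69.8% ± 6.03), and the oligodendrocyte gene Mag, a myelin glycoprotein (74.3% ± 5.57). No difference between the cell types is read from windows this few.

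Regions of microglia markers spanned the scale. Sall1 (8.81% ± 0.675) and Mertk (11.4% ± 0.307) were lowest, and C1qa, a complement subunit, was at 28.7% ± 6.09. P2ry12, the ADP receptor (6 CpGs, 70.1% ± 5.68), Itgam, the integrin CD11b (80.9% ± 1.66), and Cx3cr1, the fractalkine receptor (85.5% ± 2.15), were highest. The median of the 16 was 59.6%, against 22.6% over all regions.

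Microglia regions differed between libraries by several points. Their median SD over libraries was 2.81 points, against 0.781 over all regions, and 6 of 16 (37.5%) had an SD over 5 points, against 4.25% of all regions. The median SD was also above that of all regions in other lists, at 2.46 points in macrophage and leukocyte, 2.24 in imprinted and 2.06 in endothelial and pericyte regions. Spi1, which encodes the myeloid factor PU.1, was at 58.4%, 60.7%, 49.1% and 47.8% in replicates 1, 3, 4 and 5. Csf1r, the receptor that microglia need to survive, was at 70.3%, 74.01%, 62.8% and 60.1%, and C1qc, a complement subunit, at 63.9%, 65.8%, 53.3% and 52.02%. In each of these 3 genes replicates 1 and 3 were higher than replicates 4 and 5. Replicate 5 was the lowest library in 12 of the 16 regions (75%), against 31.6% of all regions. Sparc ran the other way, at 54.8%, 52.2%, 60.95% and 61.2%. The list mean was 53.8%, 53.5%, 50.9% and 48.7% in replicates 1, 3, 4 and 5, with an SD of 2.399 points, against SDs of 0.145 to 1.33 points for the other 11 lists. Microglia regions had a median of 23.5 CpGs, against 37 in all regions. Their level differed too, with a median of 59.6% against 22.6% over all regions. The mean SD per CpG was 0.586 points for CpGs under 5% and 10.3 points for those from 40% to 60%. Whether level or CpG number accounts for the larger spread of microglia regions was not tested. Replicate 5 was also the lowest library in 26 of 44 imprinted regions (59.1%). Whether the share of microglia differed between libraries was not tested.

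Among the remaining brain and blood lists, neuron, astrocyte and oligodendrocyte lineage regions had lower medians than microglia regions. Neuron regions had a median of 12.1% (18 regions), from Nefl, a neurofilament (0.620% ± 0.408), to Camk2a, a synaptic kinase (62.6% ± 1.198). Astrocyte regions had a median of 31.9% (10 regions), and oligodendrocyte lineage regions 30.3% (11 regions), with Mog, a myelin protein, highest at 88.5% ± 1.84. Endothelial and pericyte regions had a median of 58.5% (11 regions), with Tek, the angiopoietin receptor, highest at 90.6% ± 1.75. Other macrophage and leukocyte regions had a median of 48.2% (9 regions). The last 2 lists have no fixed order against microglia regions: without the 1000 bp flanks macrophage and leukocyte regions were at 64.8% and microglia regions at 59.6%, and with the median CpG endothelial and pericyte regions were at 59.5% and microglia regions at 58.9%. With at least 3 CpGs these were 58.5% and 58.02%. Several of these medians rest on a minority of methylated CpGs: with the median CpG of a region in place of its mean they were 1.82% in neuron, 10.6% in astrocyte and 4.299% in oligodendrocyte lineage regions, against 0.778% over all regions. Germline regions were highest of all lists, with a median of 82.1% (32 regions).

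The libraries resembled each other closely where CpGs were empty or full and less in between. Between pairs of libraries the mean absolute difference per CpG ran from 3.81 points (replicates 1 and 4) to 4.38 points (replicates 3 and 5), and Pearson's r across CpGs, which are not independent, from 0.977 to 0.983. The mean SD over libraries was 0.586 points for CpGs with a mean under 5%, 10.3 points for those from 40% to 60% and 2.89 points for those from 95%. CpGs whose libraries spanned 30 points or more numbered 42155 (3.41%). Of them 56.5% were in gene interiors, against 36.4% of all CpGs. Of CpGs from 20% to 80% in all 4 libraries 55.99% were there, so this share was near that of CpGs of middle level. Of gene regions 1010 of 23779 had an SD over 5 points. Among genes with an official name the most variable regions held few CpGs: the pseudogene Rab11b-ps2, with 6 CpGs, was at 26.5%, 60.5%, 75% and 30.8% in replicates 1, 3, 4 and 5. It was followed by H2-M6-ps (SD 17.3 points), Myct1, an endothelial gene (17.2 points), Vis1 (16.5 points) and Fitm1, a lipid droplet gene of muscle (15.6 points).

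Neighbouring CpGs were alike over short distances. Consecutive listed CpGs 2 to 10 bp apart differed by 2.47 ± 0.0730 points within a library, those over 50 and up to 100 bp apart by 10.1 ± 0.248 points, those over 500 and up to 1000 bp apart by 24.4 ± 0.436 points and those over 1000 and up to 5000 bp apart by 31.9 ± 0.676 points (SD, n = 4). Beyond 5000 bp the difference was 31.7 ± 0.728 points, so it grew no further past the first kilobases. How much CpGs paired at random differ was not computed. Dense CpGs were nearly empty, and the likeness of close pairs was not separated from that.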

How the data were processed

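DNA methylation was measured by RRBS in 4 libraries of microglia-enriched brain homogenate, grouped by their titles. The deposited values are the percent methylation per CpG position, made by the authors with Bowtie2 and methylKit on the mm10 build, per the submitters' processing notes, which give no versions. Coverage filters, the enzyme and trimming are not given in the sources used here. No counts came with the percentages, so depth is unknown, every CpG has equal weight, and a coverage minimum could not be tried.

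From these values, Python 3.11.15 with NumPy 2.4.6, pandas 2.3.3 and SciPy 1.17.1 computed means per library over CpGs, gene regions (gene and 1000 bp either side, at least 5 CpGs), start windows (1000 bp either side) and 300 bp promoters. Genes, strands and promoters are RefSeq's on GRCm38.p6, the assembly of mm10; of 314 listed symbols 2 (Nespas and Atp5f1b) were not in the gene table. Chromosome 18 promoters were not used here. One 13-month library gave a list of positions for an alternative, and no value of it was used.

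Named genes were taken, per class, from the 10 with the most CpGs, per list from the 2 lowest and 2 highest members, intermediate imprinted genes, and the 5 most variable regions; Gm and Rik names were passed over. Some genes that the rule names are not reported here. For 300 bp promoters the most methylated replaced the fully methylated, of which there were none. Other members named in the text, the even tiles and the printed sequences were chosen after their values were seen. The lists and members were chosen with earlier results of these data known. The functions were tested on simulated data. Tests were exact sign flips over libraries; alternatives covered strands, CpGs shared with 13 months, chromosomes, distances, gene types, windows, limits and each library left out.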

Additional observations from a re-analysis of the deposited data

Results flagged for a closer look

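Of 193 values examined for a library far from the other 3 (Dixon's test at the 95% level), 10 stood out, about the 1 in 20 that chance gives. Replicate 5 stood apart at the H13 and Mcts2 tile, at 39.97% against 52.5% to 53.8% in the others, at the Mcts2 start window, at 39.04% against 50.4% to 52.4% in the others, and, by a small amount, at the Ctnnd1 region, at 95.6% against 95.02% to 95.1% in the others. Replicate 3 stood apart at the start windows of Sycp1, a synaptonemal complex gene, at 71.7% against 84.8% to 85.7% in the others, and Airn, the noncoding RNA of the Igf2r cluster, at 41.2% against 29.7% to 31.3% in the others, and at the regions of Zfp952, at 96.02% against 98.03% to 98.3% in the others, and Slc2a5, the fructose transporter gene, at 56.8% against 62.1% to 62.2% in the others. Replicate 1 stood apart at the Madcam1 start window, at 56.05% against 59.4% to 59.7% in the others, and at the Arhgef10l promoter, at 59.02% against 52.2% to 53.1% in the others. Replicate 4 stood apart at the Arpp21 promoter, at 57.3% against 42.97% to 45.4% in the others. The Mcts2 tile and start window share CpGs and are not separate observations.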

How the results depend on the processing

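No paired analysis was possible because 1 group is described and no groups are compared. All alternatives of the 3 comparisons between gene ends, interiors and intergenic CpGs kept their sign: gene ends minus interiors ran from -59.6 to -34.1 points, gene ends minus intergenic CpGs from -79.3 to -55.4, and interiors minus intergenic CpGs from -21.9 to -10.8. With strands averaged the mean level was 33.3%, with 57.6% of CpGs under 20% and 24.3% over 80%. Over CpGs also listed at 13 months these were 30.6%, 60.9% and 22.1%. Without CpGs spanning 30 points or more the mean was 30.7%, with 61.5% under 20%. With neighbours counted within 500 bp, CpGs with no neighbour were at 79.6% and those with over 20 neighbours at 2.91%; the second was 0.727% with strands averaged and 0.866% over CpGs also listed at 13 months, against 0.902%. Fully methylated regions (27) were the least stable count over the CpG minimum and the limits: 52 with at least 3 CpGs, 9 with at least 10 and 504 with limits of 10% and 90%. They numbered 36 to 43 with 1 library left out, a change that can only keep or raise the count. When every CpG had to pass the limit, 1714 unmethylated, 0 intermediate and 0 fully methylated regions were left. By 1 kb tiles chromosome 19 was at 51.2% and chromosome 10 at 57.4%. Among the 10 most even tiles 0 lay near a listed imprinted gene with 40% to 60% in each library, and 6 to 8 with 1 library left out. The 300 bp promoters were unmethylated in 93.5%, against 79.3% of start windows. With the median CpG of a region in place of its mean, the median over all regions was 0.778%, against 22.6%, while the germline list was at 85.8% and the imprinted list at 33.4%. Apart from what the change of CpGs, windows or limits itself does, the cause of these shifts was not tested. With depth unknown, a CpG at 0 may rest on few reads.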
